A study of Sus scrofa with 12 samples.

Results

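Genes for the subunits of respiratory complex I were examined for C/EBP-β ChIP summits in the endometrium (uterine lining) of the pig. Members were all protein-coding genes on the assembled chromosomes whose symbols begin with NDUFA, NDUFB, NDUFC, NDUFS or NDUFV followed by a digit, together with NDUFAB1. This rule found 39 of 19550 protein-coding genes. It used symbols only and no measured value. Of the 39, 37 encode subunits of complex I. NDUFA4 is now known as a subunit of complex IV, and NDUFA4L2 is its hypoxia-induced relative.

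Complex I (NADH:ubiquinone oxidoreductase) is the entry point of the mitochondrial respiratory chain. It oxidises NADH, passes the electrons along iron-sulphur clusters to ubiquinone and pumps protons across the inner membrane. Its N module takes up electrons from NADH, its Q module reduces ubiquinone, and its membrane arm, with a proximal and a distal part, pumps protons. A core set of subunits is conserved from bacteria, and the remaining accessory subunits hold the complex together. C/EBP-β belongs to the basic leucine zipper family of transcription factors and has known roles in the uterus during implantation and decidualisation.

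The tissue came from pregnant pigs on day 15, when the conceptuses attach, and on day 12, when they elongate. Each day is represented by 3 C/EBP-β ChIP libraries, and inputs (6 samples) were not analysed here. The labels give neither breed nor age nor genotype, nor whether replicates are separate animals or pools. The spread between replicates may therefore be technical. Whole tissue was used, so the cell type behind a summit is not known.

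Each library is a list of peak summits of 1 bp with the authors' score, and the lists differ widely in length. They held 70152, 16529 and 11960 summits on the chromosomes in day 15 replicates 1 to 3 and 6557, 33294 and 57728 in day 12 replicates 1 to 3. No read counts are given, so depth is unknown. The peak names of day 15 replicates 2 and 3 and of day 12 replicate 1 carry a directory path, and the others carry none. The names of day 15 replicates 2 and 3 share 1 sample code, and in day 15 replicate 3, as in day 12 replicate 1, the sample part of the names leaves C/EBP-β out. The directory gives it for day 12 replicate 1, so day 15 replicate 3 is the library whose names nowhere give C/EBP-β, and results are also given without it. Of 17 marker genes of endometrial cell types, 8 on day 15 (47.1%) and 3 on day 12 (17.6%) had summits within 2 kb in at least 2 of 3 libraries, where 40.4% and 27.7% of all genes had. By type these were 2 and 1 of 4 epithelial, 2 and 0 of 4 stromal, 3 and 1 of 3 smooth muscle, 1 and 1 of 3 leukocyte and 0 and 0 of 3 endothelial markers on days 15 and 12. A summit is no measure of expression, so these markers do not test the tissue label.

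C/EBP-β summits lay next to 27 of the 39 genes on day 15 and next to 20 on day 12, in at least 2 of 3 libraries. Within 2 kb of either end, 34, 28 and 24 of the 39 members had a summit in day 15 replicates 1, 2 and 3, and 12, 19 and 28 in day 12 replicates 1, 2 and 3. Among all protein-coding genes the shares were 55.4%, 39.4% and 32.8% in the day 15 libraries and 13.2%, 27.9% and 42.4% in the day 12 libraries. The members' shares were 87.2%, 71.8% and 61.5% on day 15 and 30.8%, 48.7% and 71.8% on day 12. They lay above the share of all genes in each of the 6 libraries, and the libraries with the higher shares of all genes had the higher shares of members, apart from a tie. The day groups overlapped, since day 12 replicate 3 equalled day 15 replicate 2.

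**Figure D1:**
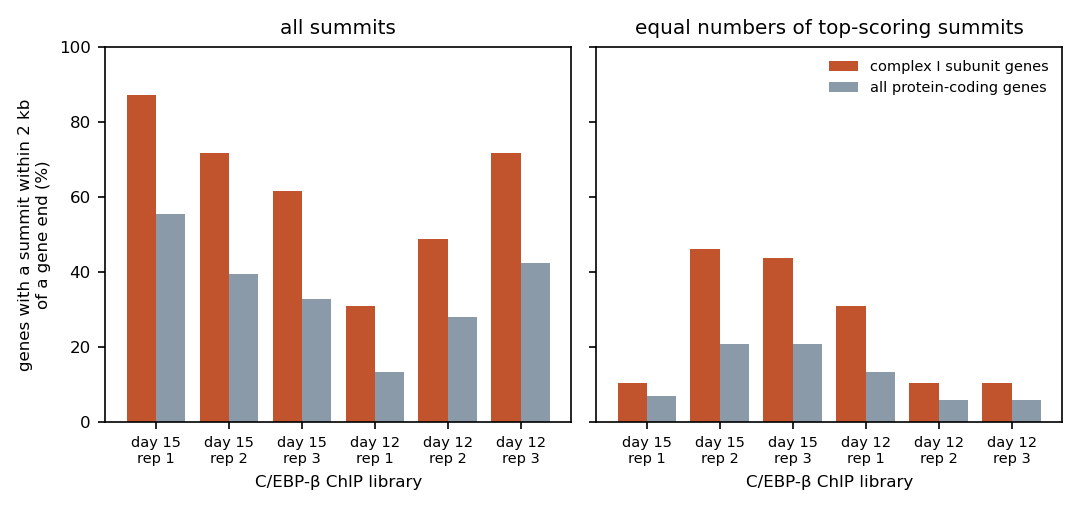
Bars give the percentage of genes with summits no more than 2 kb from either end in each C/EBP-β ChIP library, for the 39 complex I subunit genes and for all 19550 protein-coding genes, with all summits (left) and with only the top 6557 summits by score per library (right). The complex I bar is the taller one in every library, and with equal lists the bars of day 15 replicates 2 and 3 and day 12 replicate 1 are the tallest.

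Counted by day, with a summit in at least 2 of 3 libraries, 27 members qualified on day 15 (69.2%) and 20 on day 12 (51.3%). The same rule was met by 40.4% of all protein-coding genes on day 15 and by 27.7% on day 12. On both days together 18 members qualified (23% of all genes). Without NDUFA4 and NDUFA4L2 the counts were 26 and 20 of 37. Without day 15 replicate 3 the day 15 count was 25 (both remaining libraries, 37% of all genes). The day 12 count changed with single libraries. When both remaining libraries had to have a summit, it was 10 leaving out day 12 replicate 2 (12.5% of all genes) and 9 leaving out day 12 replicate 3 (11% of all genes). No list was tested for enrichment, since the members were proposed with results of these data known.

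A wider window of 5 kb added little for these genes. It found 35, 29 and 25 members in day 15 replicates 1 to 3 (64.8%, 44.6% and 37.6% of all genes) and 12, 21 and 31 in day 12 replicates 1 to 3 (17.2%, 38.4% and 54.1% of all genes). By day, 28 members qualified on day 15 (46.3% of all genes), 22 on day 12 (38.1%), 20 on both days (30.5%) and 10 in all 6 libraries (13.1%), with NDUFV2 the addition. It added 8 member-library pairs, and 2 of them belonged to NDUFS5, at 2427 and 2566 bp in day 15 replicates 2 and 3. More day 15 than day 12 libraries had a summit in 19 members (35.3% of all genes) and fewer in 2 (11.2%). Genes with no summit in any library, 29.5% of all genes but 5.13% of the members, lower these shares of all genes. NDUFS6 and NDUFV1 again had 3 against 0 (2.83% of all genes, 0.0307% in reverse), and 6 members differed by at least 2 libraries, all higher on day 15 (11.8% of all genes, 1.58% in reverse).

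Complex I genes are short and often lie close to other genes. Their median length was 7.06 kb, against 20.7 kb for all protein-coding genes. Another protein-coding gene ended within 2 kb of an end in 26 of the 39 members (66.7%), against 36% of all genes. Genes with such a neighbour had summits more often across the genome, 58.2% on day 15 and 36.9% on day 12, than genes without one, 30.5% and 22.5%. Among the members with a neighbour, 18 of 26 qualified on day 15 (69.2%), 12 on day 12 (46.2%) and 6 in all 6 libraries (15.1% of all genes with a neighbour). Of the 13 without a neighbour, 9 qualified on day 15 (69.2%) and 8 on day 12 (61.5%). The part of gene length and of expression in the counts was not tested.

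**Figure D2:**
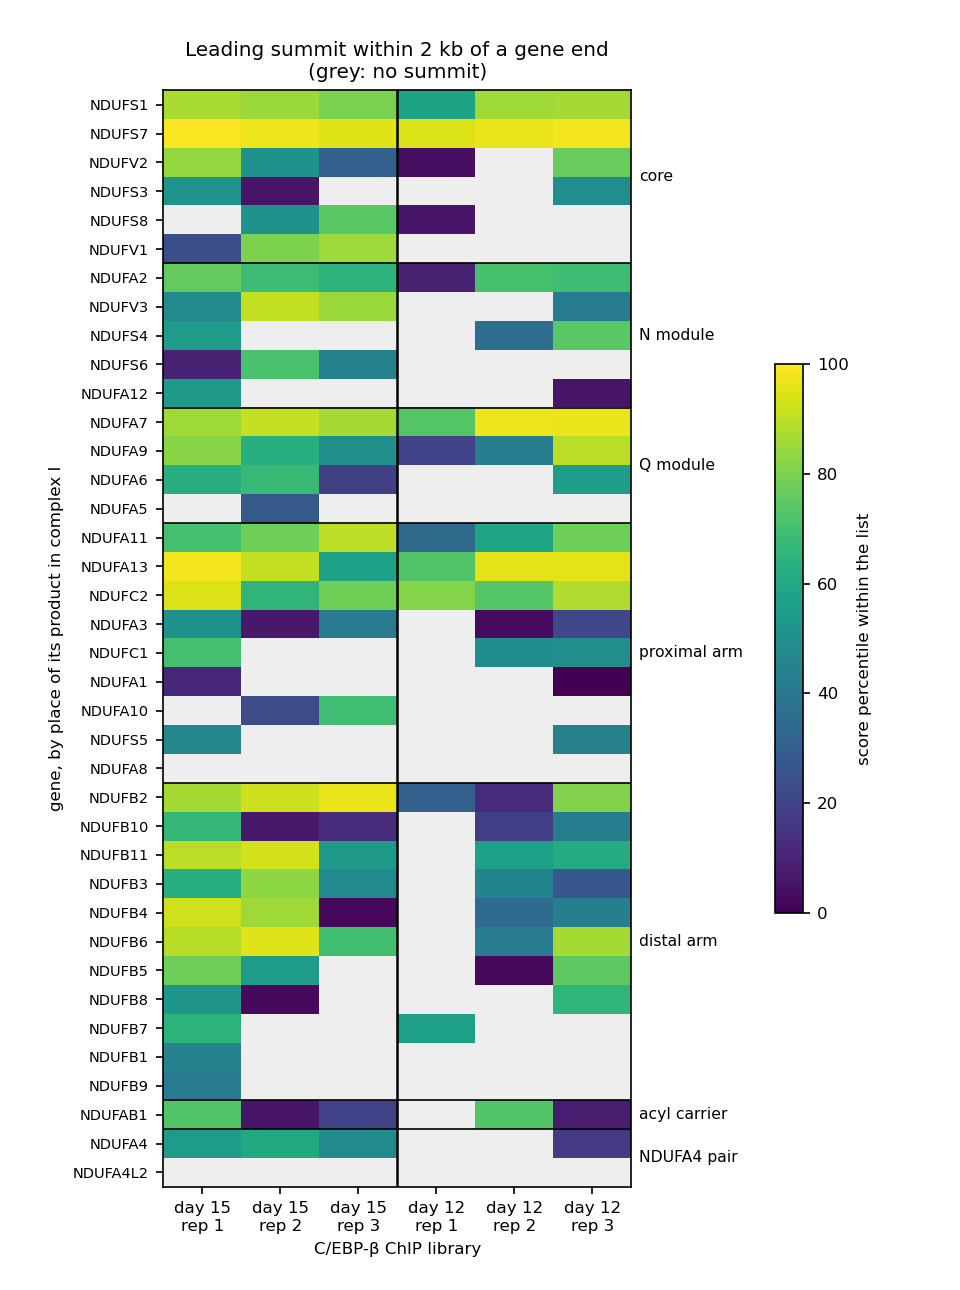
Each row is a complex I gene (1 member is not shown), grouped by the place of its product in the complex, and each column a C/EBP-β ChIP library. Colour gives the percentile of the gene's highest-scoring summit within 2 kb among all summits of that list, and grey means no such summit. NDUFS7 is above percentile 94 in all 6 columns, and NDUFA8 and NDUFA4L2 are grey throughout.

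A summit in all 6 libraries was found for 9 members, or 23.1%, against 9.71% of all genes. They were NDUFS1 and NDUFS7 of the core, NDUFA2 of the N module, NDUFA7 and NDUFA9 of the Q module, NDUFA11, NDUFA13 and NDUFC2 of the proximal membrane arm and NDUFB2 of the distal arm. Without day 15 replicate 3 the number in all remaining libraries was also 9 (10.3% of all genes), and without day 12 replicate 1, the shortest list, it was 16 (17.3% of all genes). The 7 genes then added were NDUFA3, NDUFAB1, NDUFB3, NDUFB4, NDUFB6, NDUFB10 and NDUFB11. For each gene and library the highest-scoring summit within 2 kb is called the leading summit, and its percentile is its place among all summits of the same list by score. Percentiles of lists of different lengths cannot be compared as levels, so they are given to describe each list.

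NDUFS7 had the highest mean percentile of all members, 97.1. It encodes the core subunit that carries the last iron-sulphur cluster before ubiquinone. Its leading summits stood at percentiles 99.5, 97.6 and 95.2 in day 15 replicates 1 to 3, and at 94.7, 97.2 and 98.4 in day 12 replicates 1 to 3. They lay 184, 110 and 159 bp outside the upper-coordinate end on day 15 and 169, 193 and 178 bp outside it on day 12. All 6 summits thus fell within 83 bp, on chromosome 2 from 77087251 to 77087334 (build susScr11), with no other gene end within 2 kb. The gene table gives no strand, so an end cannot be called a start.

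NDUFS1, the largest core subunit and an iron-sulphur protein of the N module, had a mean percentile of 80.5. Its leading summits stood at 87.4, 84.8 and 80 on day 15 and at 58.2, 85.8 and 86.6 on day 12. They lay 20, 250 and 272 bp outside the upper end on day 15 and 140, 30 and 70 bp outside it on day 12 (chromosome 15, 109451833 to 109452085). That stretch also borders EEF1B2, a translation elongation factor gene, whose end was the nearer in 4 of the 6 libraries. The summits therefore cannot be assigned to either gene.

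NDUFA13, also known as GRIM-19, encodes an accessory subunit of the proximal membrane arm that has been described as a partner of STAT3. Its leading summits stood at percentiles 98.1, 91 and 57.1 on day 15 and at 72.8, 95.9 and 95.9 on day 12. All 6 lay inside the gene, 86, 181 and 14 bp from the upper end on day 15 and 55, 95 and 76 bp from it on day 12 (chromosome 2, 58410233 to 58410400). The next gene end, that of TSSK6, was 722 bp or more away.

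NDUFC2, a membrane arm subunit, had its summits about 1 kb from the gene in every library. The distances from the upper end were 994, 1018 and 1052 bp on day 15 and 1019, 1007 and 1001 bp on day 12, a span of 58 bp (chromosome 9, 12493501 to 12493559). Percentiles were 94.6, 65.5 and 78.2 on day 15 and 81.6, 73.5 and 88.1 on day 12. No other protein-coding gene ended within 2 kb of these summits.

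NDUFB2, a subunit of the distal membrane arm, had summits within 68 bp of its upper end in all 6 libraries (chromosome 18, 9150482 to 9150581). They stood at percentiles 86.4, 92.5 and 96.9 on day 15 and at 31.1, 11.8 and 81 on day 12. NDUFA11, a membrane arm subunit, had summits at 2 places outside its lower end. They were 764, 142 and 688 bp away on day 15 and 106, 808 and 81 bp away on day 12, at percentiles 70.5, 77.8 and 90.2 on day 15 and 34.4, 58.8 and 78 on day 12. NDUFA9, a nucleotide-binding subunit next to the Q module, had summits within 196 bp of its upper end, at percentiles 82.1, 63.1 and 49.7 on day 15 and 20.3, 42.1 and 89.8 on day 12. AKAP3 ended within 2 kb and was nearer to the summit in 4 of the 6 libraries.

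NDUFA7 and NDUFA2 had leading summits at both ends. NDUFA7, a Q module subunit, had percentiles of 85.7, 91.4 and 86.6 on day 15 and 73.1, 97.5 and 97.2 on day 12. In day 15 replicates 2 and 3 and day 12 replicate 1 the summit lay 11, 58 and 101 bp from the lower end, which it shares with RPS28, a gene of the small ribosomal subunit. In day 15 replicate 1 and day 12 replicates 2 and 3 it lay 1461, 1449 and 1356 bp beyond the upper end, nearer to CD320. NDUFA2, an N module subunit with a thioredoxin fold, stood at percentiles 76, 68.4 and 64.6 on day 15 and 9.91, 71 and 69.1 on day 12. Day 15 replicates 2 and 3 and day 12 replicate 1 had its summit 162, 68 and 31 bp from the upper end, next to IK. Day 15 replicate 1 and day 12 replicates 2 and 3 had it 34, 73 and 78 bp from the lower end, next to TMCO6. In both genes the end used followed the presence of a directory path in the peak names, not the day.

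**Figure D3:**
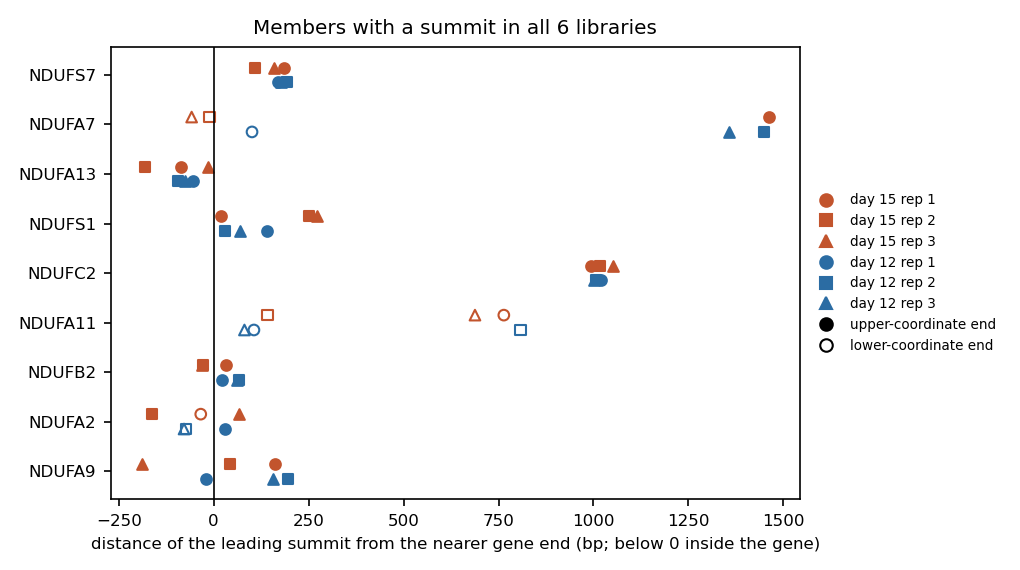
Points give the distance in bp of the leading summit from the nearer gene end for the 9 members with a summit in all 6 libraries, with values below 0 inside the gene, colour for the day and shape for the replicate. Filled points lie at the upper-coordinate end and open points at the lower one. The points of NDUFS7, NDUFB2 and NDUFC2 lie within 99 bp of each other, and those of NDUFA7 fall at both ends.

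Across the members, leading summits sat close to the gene end. Of 145 member-library pairs with a summit, 110 had it within 500 bp of an end and 52 inside the gene. The share inside was 35.3%, 46.4% and 50% in day 15 replicates 1 to 3 (50.2%, 51.1% and 48.7% for all genes) and 25%, 21.1% and 28.6% in day 12 replicates 1 to 3 (43.4%, 42.9% and 45.4%). It was lower in the members in 5 of 6 libraries. The median distance was 182, 122 and 142 bp in day 15 replicates 1 to 3, against 350, 187 and 163 bp for all genes with a summit there. On day 12 it was 104, 121 and 178 bp in replicates 1 to 3, against 226, 513 and 457 bp. The members' median was the shorter one in each library. Within 500 bp lay 70.6%, 85.7% and 87.5% of the members' leading summits on day 15 (58.4%, 75.8% and 77.3% for all genes) and 83.3%, 68.4% and 64.3% on day 12 (66.7%, 49.2% and 52.1%). Of all summits near members, leading or not, the nearest to the 2 kb limit were those of NDUFB6 at 1972 bp, inside it, and of NDUFB3 at 2013 bp, outside it.

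Median score ranks of the members lay near those of other genes. The median percentile of their leading summits was 65.5, 68.1 and 60.8 in day 15 replicates 1 to 3, against 61, 62.6 and 58.1 for all genes with a summit. On day 12 it was 45.6, 48.5 and 63.4, against 44.1, 51.1 and 55.6. Above percentile 90 stood 4, 7 and 3 members on day 15, or 11.8%, 25% and 12.5% of those with a summit. Of all such genes 13.1%, 15% and 12.7% did. On day 12 there were 1, 3 and 3 members, or 8.33%, 15.8% and 10.7%, against 8.24%, 11.4% and 12.5%. The widest gap was thus in day 15 replicate 2. Among 33 members with summits in at least 2 libraries, all leading summits were at 1 end in 29 (87.9%), against 87.6% of all such genes. NDUFA2, NDUFA4, NDUFA7 and NDUFB10 were the exceptions.

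Many of these ends are shared with another gene. In 19 of 37 members with any summit, a leading summit also lay within 2 kb of an end of another protein-coding gene, and in 37 of the 145 pairs that other end was the nearer one. These counts were not made over all genes, so they describe the members only and show no departure from other genes. NDUFB6, a distal arm subunit, had summits 1069 to 1184 bp from its upper end in 5 libraries, and each was nearer to TOPORS, a ubiquitin and SUMO ligase gene. NDUFB7 had summits only 1442 and 1453 bp from its end, nearer to TECR, a gene of fatty acid elongation. NDUFB10 had RNF151 as the nearest other gene in day 15 replicate 1 and RPL3L in its other 4 libraries.

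By place in the complex the groups are small, and differences between them were not tested. All 7 core genes among the 39 members had a summit in at least 1 library, where 38.9% of all genes had none. Core genes outside the symbol rule were not examined. Of these 7, 6 qualified on day 15 and 3 on day 12 (40.4% and 27.7% of all genes). NDUFV2, the iron-sulphur partner of the NADH-binding subunit, had summits in every day 15 library and in 2 of 3 on day 12. NDUFS3 and NDUFS8, both of the Q module, had 2 and 1. In the accessory N module, 3 of 5 genes qualified on day 15 and 2 on day 12, and in the accessory Q module 3 and 2 of 4. NDUFA5 of the Q module had a summit in 1 day 15 library only, and NDUFA12 of the N module in 1 library of each day.

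The membrane arm genes among the members, all of them for accessory subunits, had summits in 0 to 6 libraries. Of 9 genes of the proximal arm, 5 qualified on day 15 and 5 on day 12 (40.4% and 27.7% of all genes). NDUFA3 had summits in 3 and 2 libraries of days 15 and 12, NDUFC1 in 1 and 2, NDUFA1 and NDUFS5 in 1 and 1. Of 11 genes of the distal arm, 8 qualified on day 15 and 7 on day 12. NDUFB3, NDUFB4, NDUFB6, NDUFB10 and NDUFB11 each had summits in 3 day 15 and 2 day 12 libraries, and day 12 replicate 1 was the library that lacked one each time. NDUFB5 had 2 and 2, NDUFB8 2 and 1, NDUFB7 1 and 1, and NDUFB1 and NDUFB9 1 and 0. NDUFAB1, the mitochondrial acyl carrier protein, had 3 and 2, within 261 bp of its lower end.

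No summit within 5 kb was found in any library for NDUFA8, a proximal arm subunit on chromosome 1 (262243225 to 262258186), nor for NDUFA4L2 on chromosome 5 (22540482 to 22548418). Among all genes, 38.9% had none within 2 kb and 29.5% none within 5 kb. Since the depth of the lists is unknown, these genes are reported as having no called summit.

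The members with more libraries on day 15 outnumbered those with more on day 12. More day 15 libraries had a summit in 21 members (35.4% of all genes), more day 12 libraries in 2 (7.51% of all genes), and 16 had equal numbers. Genes without a summit in any library count as equal, and these were 38.9% of all genes but 5.13% of the members. Such genes lower every share of all genes in this comparison. A stronger lean of the members towards day 15 therefore cannot be read from these shares. A difference of at least 2 libraries was seen in 6 members, all higher on day 15 (13.6% of all genes, with 0.977% in the other direction). The mean share of members with a summit was 73.5% ± 12.9 on day 15 and 50.4% ± 20.6 on day 12 (SD, n = 3 each), a difference of 23.1 percentage points. Over all genes the means were 42.5% ± 11.6 on day 15 and 27.9% ± 14.6 on day 12 (SD, n = 3 each). That difference of 14.7 points did not pass a two-sided exact permutation test over libraries (p = 0.3, where 3 against 3 cannot go below 0.1). The members' difference was not tested, and leaving out day 15 replicate 3 gave 29.1 points, leaving out day 12 replicate 1 gave 13.2. The same difference was 22.2 points for all genes with a neighbouring gene end within 2 kb. It was 31.2 points for complex V, 32 for mitochondrial ribosomal protein genes and 41.2 for complex I assembly factors (lists described below). A larger difference is thus not particular to the members, and the lists were not tested against each other.

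Peak names with and without a directory path divide both days. Within the libraries that carry a path, members' shares were higher on day 15 by 35.9 points, and within those that carry none by 26.9 points. The first difference rests on 1 day 12 library, replicate 1, and the second on 1 day 15 library, replicate 1. In each set every day 15 list was longer than every day 12 list, so day and list length cannot be told apart there. Over all genes the differences within the sets were 22.9 and 20.2 points (exact permutation within the sets, p = 0.111, the smallest possible). When each library was reduced to its 6557 highest-scoring summits, 4, 18 and 17 members had a summit in day 15 replicates 1 to 3 and 12, 4 and 4 in day 12 replicates 1 to 3. The shares of all genes were then 6.84%, 20.7% and 20.7% on day 15 and 13.2%, 5.85% and 5.85% on day 12. The 3 libraries whose names carry a path held the higher numbers on both days. By day, 16 members qualified on day 15 and 5 on day 12 in these equal lists (16.5% and 6.06% of all genes). A path is carried by 2 of 3 libraries on day 15 and by 1 of 3 on day 12. The count by day therefore cannot be separated from this split, and the libraries without a path held 4 members each on both days. NDUFA13 and NDUFS7 kept a summit in all 6 (2.33% of all genes).

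A complete separation of the days was rare. NDUFV1 and NDUFS6 had summits in every day 15 library and in 0 of 3 on day 12 (3.44% of all genes), and 0 members showed the reverse (0.0102% of all genes). In 3 against 3 libraries a single gene cannot reach an exact permutation p below 0.1, so no gene could pass a threshold adjusted over all genes. Complete separation by the directory path was seen for 3 members. Within 2 kb NDUFS8 had summits only in the 3 libraries with a path (0.0512% of all genes), and NDUFS4 and NDUFC1 only in the 3 without (3.58% of all genes). With a score of at least 5, NDUFC1 was the 1 member left of these 3 (2.83% of all genes). In equal lists other members separated, NDUFA2, NDUFA11 and NDUFB2 towards the libraries with a path (4.65% of all genes) and 0 towards those without (0.194%).

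NDUFV1 encodes the subunit that binds NADH and flavin. Its summits lay 136 bp outside and 88 and 61 bp inside the upper end in day 15 replicates 1 to 3, at percentiles 23.9, 80.2 and 85.2 (chromosome 2, 4964123 to 4964347). No day 12 library had a summit within 5 kb. NDUFS6, a zinc-binding subunit of the N module, had its day 15 summits 93, 1577 and 129 bp from the upper end at percentiles 9.45, 71.2 and 44.1, the second of them next to MRPL36. Here too the day 12 libraries had none within 5 kb. With a score of at least 5, neither gene separated the days in this way, and NDUFA4 did.

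The other 4 members that differed by at least 2 libraries were NDUFA4, NDUFA6, NDUFA10 and NDUFV3. NDUFV3, an N module subunit, had summits 214, 116 and 91 bp inside its lower end on day 15, at percentiles 48, 90.9 and 84.9. On day 12 it had 1, in replicate 3, 1063 bp inside the gene at percentile 41.4. NDUFA6, a subunit of the Q module, had them 16, 46 and 73 bp inside its lower end on day 15, at percentiles 62.6, 67.8 and 18.9, and 26 bp inside it in day 12 replicate 3, at percentile 55.7. NDUFA4 had day 15 summits 268, 202 and 182 bp outside its upper end, at percentiles 55.3, 60.6 and 47.7. Its day 12 summit, in replicate 3, lay at the other end, 351 bp away at percentile 17.1. NDUFA10, a subunit with a kinase-like fold, had 1 each in day 15 replicates 2 and 3, 56 bp inside and 77 bp outside the upper end, at percentiles 23 and 69.3. Without day 12 replicate 3, 5 members had summits in all day 15 and no remaining day 12 libraries (8.78% of all genes), namely NDUFA4, NDUFA6, NDUFV3, NDUFS6 and NDUFV1. Without day 15 replicate 3 there were 2, NDUFS6 and NDUFV1 (5.85% of all genes).

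Other genes of the pathway also had summits on both days. Of 20 listed assembly factors of complex I, 17 were found in the gene table. Of these, 11 qualified on day 15 (64.7%) and 5 on day 12 (29.4%). The shares of all genes were 40.4% and 27.7%, so the assembly factors lay near the background on day 12. TMEM126A alone had a summit in all 6 libraries (5.88%, against 9.71% of all genes). ACAD9, FOXRED1, NDUFAF3 and NDUFAF5 had 3 and 2 of the day 15 and day 12 libraries, ECSIT, NUBPL, TIMMDC1 and TMEM186 3 and 1, and NDUFAF8 and TMEM126B 3 and 0. The remaining 6 had 1 day 15 library and at most 1 of day 12. Each of the 17 had a summit in at least 1 library, where 38.9% of all genes had none. Subunit genes of complex V, the ATP synthase, qualified in 12 of 16 cases on day 15 (75%) and 9 on day 12 (56.2%), with ATP5A1, ATP5D, ATP5G1 and ATP5J in all 6 libraries. Of 74 mitochondrial ribosomal protein genes, 58 qualified on day 15 (78.4%) and 31 on day 12 (41.9%). These differences between lists were not tested. Complex II had its 4 listed genes in the table, of which 3 qualified on day 15 and 1 on day 12. SDHA and SDHD had summits in 3 and 0 of the day 15 and day 12 libraries (3.44% of all genes), SDHB in 2 and 2, and SDHC in 1 and 1. For complexes III and IV, 2 of 9 and 7 of 13 listed genes were found, so these lists are incomplete. Of the 2 genes of complex III, 1 qualified on day 15 and 0 on day 12. Of the 7 genes of complex IV, 4 qualified on day 15 (57.1%) and 1 on day 12 (14.3%), and 0 had summits in all 6 libraries.

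**Figure D4:**
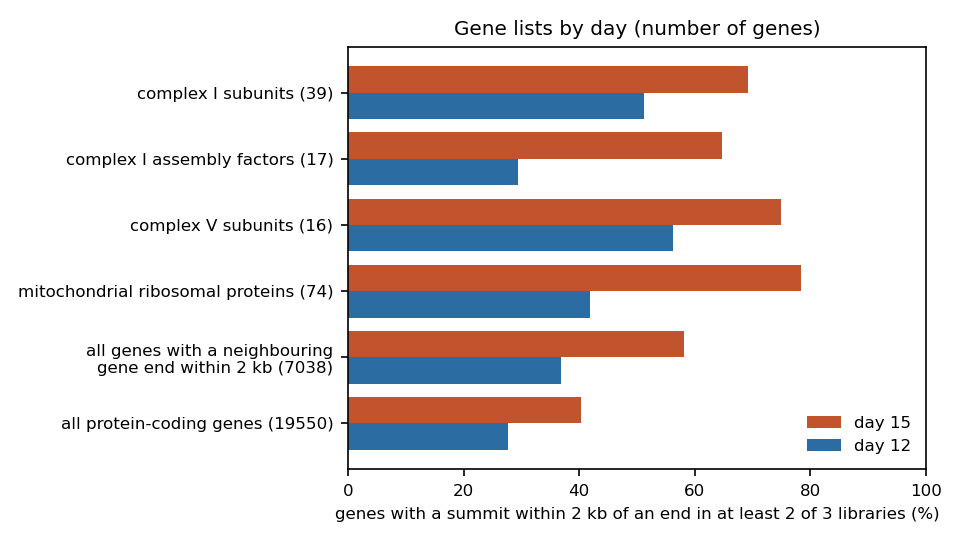
Bars give the percentage of genes in each list with summits no more than 2 kb from either end in at least 2 of 3 libraries, day 15 above day 12, with the number of genes in brackets. Complex I subunits stand at 69.2% on day 15 and 51.3% on day 12, and all protein-coding genes at 40.4% and 27.7%.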

How the data were processed

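Per the labels' protocols, endometrial tissue was fixed with formaldehyde and sonicated, and libraries were size-selected. Bowtie2 2.3.5.1, SAMtools 1.9, MACS2 2.1.2 and the build susScr11 are named in the submitters' processing notes. For the calling threshold, use of inputs and duplicate removal, settings were not given in the sources used here. The deposited score is on a −log10 scale (per the MACS2 format, of either a p- or a q-value) and served to order or threshold the summits of 1 list at a time. Depth is unknown. Gene positions came from RefSeq (Sscrofa11.1) without strand, exons or sequence. Hence the planned distance to gene starts and the promoter motifs were not run. Of 198341 summits, the 196220 on assembled chromosomes were kept. Counts were computed with Python 3.11.15 and pandas 2.3.3 and tested on simulated summits. Lists were matched by symbol, synonym, Ensembl ID or older symbol. The members and lists were chosen with earlier results of these data known. Members are named one by one, except 1 that enters the counts and is not reported here by itself. Distances and percentiles per library are printed for members with summits in all 6 libraries, for those with a gap of 2 or 3 libraries between the days, and for those without any. From other lists, up to 4 members found in all 6 libraries or in none were to be named; the rest named there were chosen after their values were seen. Alternatives were windows of 1 and 5 kb, the gene body, scores of at least 5 or 10, equal lists, all 3 libraries required per day, leaving out each replicate, the sets shown by the peak names and pairing by replicate number. The data had been seen when 2 more were chosen, the counts without NDUFA4 and NDUFA4L2 and the background of genes with a close neighbour.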

Additional observations from a re-analysis of the deposited data

How the results depend on the processing

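Windows of 1 and 5 kb and the whole gene body gave 25 to 28 members on day 15, 18 to 22 on day 12 and 7 to 10 in all 6 libraries. The shares of all genes moved more, for all 6 libraries from 7.59% (1 kb) to 15.8% (gene body). With the gene body they were 49.6% on day 15 and 46.1% on day 12, so that the 20 members of day 12 (51.3%) lay near the background. A stricter score moved them more. With a score of at least 5, 22 members qualified on day 15, 12 on day 12 and 1 separated the days (30.6% and 18% of all genes on days 15 and 12). With a score of at least 10, 15 qualified on day 15, 6 on day 12 and 2 in all 6 libraries, and 0 separated the days (16.5%, 8.91% and 1.98% of all genes on day 15, on day 12 and in all 6). Equal lists gave 16, 5, 2 and 0 for the same quantities. Requiring all 3 libraries of a day left 22 members on day 15 and 9 on day 12, with no share of all genes at hand. Neither these counts nor their contrast can therefore be set against other genes. These settings count fewer summits or ask for more libraries by construction. Leaving out each library in turn gave 22 to 27 members on day 15 (29.9% to 40.4% of all genes). On day 12 it gave 9 to 20 (11% to 27.7%). In all remaining libraries there were 9 to 16 (9.73% to 17.3%), and 2 to 5 separated the days (3.8% to 8.78%). The difference in mean share ranged from 13.2 to 33.8 points for the members and from 7.35 to 21.9 points for all genes. Averaged within the sets shown by the peak names, these differences were 31.4 and 21.5 points. With replicate numbers as a block, the difference over all genes was 14.7 points (exact sign-flip permutation p = 0.5, smallest possible 0.25) and that of the members 23.1. Same-numbered libraries did not deviate together (r across genes -0.24, 0 and -0.19). Each same-numbered pair holds 1 library with a directory path in its peak names and 1 without. These values therefore cannot decide whether the numbers pair the libraries. The direction of these differences held in all settings run. In equal lists, however, the libraries without a directory path in the peak names held 4 members each on both days. The planned restriction to gene starts was not run, since the gene table gives no strand.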

Other observations

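Genes of mitochondrial biogenesis, from a list of 12 regulators, had summits within 2 kb of a gene end on day 15 in 10 cases and on day 12 in 5, where 40.4% and 27.7% of all protein-coding genes had one in at least 2 of 3 libraries. GABPA and ESRRA, transcription factors of nuclear genes for mitochondrial proteins, and POLRMT, the mitochondrial RNA polymerase gene, had a summit in all 6 libraries (9.71% of all genes). TFAM, which packages mitochondrial DNA, and PPARGC1A, a coactivator, had none within 2 kb in any (38.9% of all genes). Within 5 kb PPARGC1A had a summit in 1 library. NRF1, whose product is known to act on many respiratory chain genes, had summits in every day 15 library and in 1 of 3 on day 12. TWNK, the mitochondrial helicase gene, had them in every day 15 library and in 0 of 3 on day 12 (3.44% of all genes). TFB1M and YY1 had 3 and 1 of the day 15 and day 12 libraries, PPRC1 3 and 2, PPARGC1B 2 and 2, and TFB2M 2 and 0. These genes were not tested against other genes.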
